A study of Mus musculus with 106 samples.

Results

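Primordial germ cells (PGCs), from which eggs and sperm derive, were compared at embryonic day 8.25 (E8.25) with the posterior epiblast of pre-streak embryos, the tissue from which the lineage sets out. The members were chosen by their titles: the 8 cells titled as E8.25 PGCs and the 8 cells titled as pre-streak posterior epiblast, 16 of the 106 cells of the series. The series profiled single cells of mouse embryos along this path on Affymetrix arrays, 1 cell per array, in 11 groups that differ in stage, genotype and marker transcripts. All cells used here came from wild-type C57BL/6 embryos and were picked at random from dissected pieces of embryo after trypsin and EDTA. The E8.25 PGCs had been chosen as Blimp1+ and stella+ (genes Prdm1 and Dppa3), and the epiblast cells as Oct4+ and T+ (Pou5f1 and T). Further groups enter below, where stages or neighbouring cells are described: 7 Blimp1+ Oct4+ precursors of the Early/Mid-Streak (E/MS) stage, 17 such precursors from Late-Streak/0-Bud (LS/0B) embryos, 8 PGCs each of the Early/Mid-Bud (E/MB) and early head fold (EHF) stages, and 10 cells of the E/MB posterior mesoderm at the base of the allantois (Blimp1-, Oct4+, Hoxb1+). The submitters also screened cells by fragilis (Ifitm3) together with Blimp1, so Prdm1, Dppa3, Pou5f1, T and Ifitm3 are not findings here. No embryo or litter is named, so each group counted as 1 sample, and the values below describe these cells without a test.

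Germ cells are set aside from the proximal posterior epiblast when BMP signals from the neighbouring extraembryonic tissue induce Blimp1, Prdm14 and Tfap2c in a few cells. These cells hold back the somatic programme of their neighbours, keep or regain genes of pluripotency, lower the enzymes that write DNA methylation, and move from the base of the allantois into the hindgut. The pre-streak epiblast is a fast dividing epithelium in the primed state of pluripotency, with Nodal signalling and high levels of the de novo methyltransferases.

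Levels are log2 array signal. Values below a floor of 6.13, set from probe sets of receptor and keratin-associated genes that early embryonic cells do not use, were raised to it, so 6.13 means at or below background and a difference from it understates the true one. A gene counted as detected where its signal passed the 95th percentile of these background probe sets in the same cell, a limit between 107 and 150 in the 16 cells. Differences are the mean of the PGCs minus the mean of the epiblast cells, in log2 units, and those of at least 1 were counted. Rare transcripts can be lost when the cDNA of a single cell is amplified, so a gene at the floor was not shown to be absent.

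Both groups gave similar numbers of detected genes, 6496 to 7671 in PGCs (median 7029.5) and 6847 to 7358 in epiblast cells (median 7055.5). Over the 7250 genes that 50% or more of the 106 cells had detected, the correlation of 2 cells was 0.627 to 0.758 among PGCs, 0.706 to 0.773 among epiblast cells and 0.579 to 0.667 between a PGC and an epiblast cell, as a description across genes that share arrays and background. Xist, which coats the inactive X chromosome, was detected in 0 of 8 PGCs and 8 of 8 epiblast cells, and a Y-linked transcript in 7 of 8 PGCs and 0 of 8 epiblast cells. Sex and stage can therefore not be told apart in this comparison. Tex101 and Tsga8 divided the cells of the series without a label that says why. They were detected in all 16 cells here and in all E/MB and EHF PGCs, in 8 of 17 LS/0B precursors, and in 0 of 7 E/MS precursors. The 8 LS/0B precursors were those titled replicates 1 to 8, and 0 of the 9 other LS/0B replicates had either transcript. The ends thus lay on the same side of that split and E/MS and mesoderm cells, with Tex101 in 0 of 10 mesoderm cells, did not. Whether cells or arrays differ there is not known, and its part in the stage values below was not tested.

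Of 18193 genes, 891 (4.90%) were at least 1 log2 unit higher in PGCs and 932 (5.12%) were lower. The groups did not overlap at all for 108 genes that were higher in every PGC (0.594%) and for 124 that were lower in every PGC (0.682%). Among the 6808 genes detected in 75% or more of the cells of either group, 1532 (22.5%) differed by that much, 746 higher and 786 lower, and lists of mixed direction with shares of this order are described gene by gene, not as groups. Higher genes made up 48.9% of those past 1 log2 unit. With each array scaled to its hybridisation controls, which moved the median of broadly detected genes to 0.16, they made up 61.3%. Ribosomal protein genes, at a median of -0.04 (0.15 with that scaling), and housekeeping genes, at -0.03 (0.16), sat near 0, with 0 of 20 and 1 of 12 members past 1 log2 unit.

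**Figure D1:**
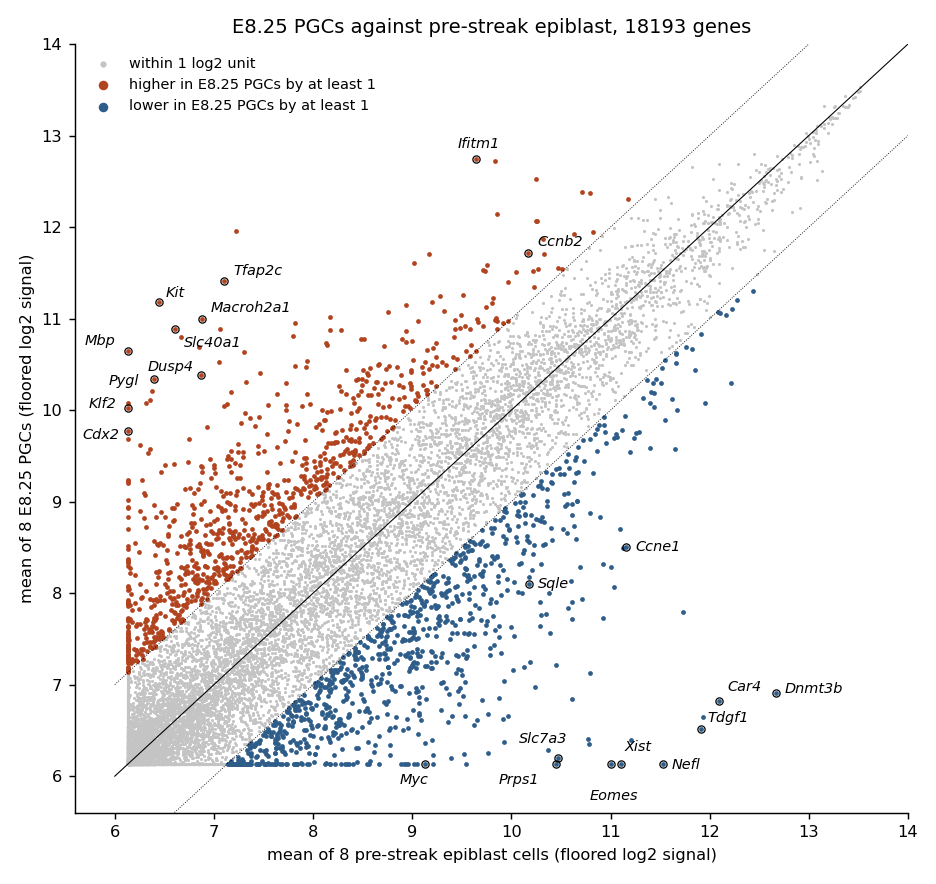
Mean log2 signal of each gene in the 8 E8.25 PGCs (vertical axis) against its mean in the 8 pre-streak epiblast cells (horizontal axis), with dotted lines at a difference of 1 log2 unit and selected genes labelled. Kit, Mbp and Tfap2c stand near the left edge and Dnmt3b, Nefl and Tdgf1 near the lower edge, while most genes lie between the dotted lines.

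Markers of endoderm, blood and neural plate were mostly not detected at either end, while the lists of trophoblast, streak and allantois were partly detected at both. Of 19 measured endoderm markers, 1 to 5 were detected in a PGC and 1 to 2 in an epiblast cell, with a summed signal of 1165.4 to 2239.6 in PGCs and 588.1 to 1384.4 in epiblast cells. Afp, Ttr, Apob, Hnf4a, Gata4 and Gata6 were detected in no cell of either group. Blood and endothelium markers reached 1 to 7 of 19 in a PGC and 0 to 1 in an epiblast cell, with sums of 487.1 to 5053.3 in PGCs and 378.7 to 1569.1 in epiblast cells. The globins Hbb-bh1, Hba-x, Hbb-y and Hba-a1, with Gata1, Tal1 and Pecam1, were detected in no cell of either group. The higher blood-list members in PGCs were Lmo2 (1.78, detected in 5 of 8 PGCs and 0 of 8 epiblast cells), Ets1 (1.58, in 6 and 0) and Gata2 (1.58, in 4 and 1). Neural plate markers numbered 1 to 3 of 16 in PGCs and 0 to 4 in epiblast cells, and Gbx2, a homeobox gene of this list, was higher by 2.24. Trophoblast markers numbered 3 to 7 of 11 in PGCs and 2 to 6 in epiblast cells, with a summed signal of 3587.7 to 6238.1 in PGCs and 894.7 to 5796.3 in epiblast cells. Those of the allantois numbered 3 to 8 of 17 in PGCs and 2 to 5 in epiblast cells, with sums of 1512.8 to 6633.9 in PGCs and 876.6 to 2860.7 in epiblast cells. Streak and mesoderm markers numbered 3 to 6 of 22 in PGCs and 2 to 6 in epiblast cells, with sums of 922.9 to 3417.5 in PGCs and 2686.4 to 6782.1 in epiblast cells. Their part in the results was not tested.

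Genes of germ cell specification were higher in PGCs. Of 16 measured, 11 were higher by 1 log2 unit or more and 1 was lower, with a median difference of 2.56 against 0.00 over all genes. Of all genes 4.90% were higher and 5.12% lower. Without the genes used to choose cells, 8 of 13 were higher and 1 lower, with a median of 2.00. Kit, a marker given with the comparison, remained among the 13. The mean signal of these 13 genes was 9.49 ± 0.32 in PGCs and 7.59 ± 0.14 in epiblast cells (SD over cells, n = 8 each), and the lowest PGC (9.04) lay above the highest epiblast cell (7.73).

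Kit, the receptor for stem cell factor on which PGC survival and migration depend, lay between 10.60 and 11.62 (median 11.24) in PGCs, against 6.13 to 7.43 (median 6.13) in epiblast cells, a difference of 4.74. It was detected in 8 of 8 PGCs and 2 of 8 epiblast cells. Every PGC was high and the groups were over 3 log2 units apart at their nearest, although only 1 of the 2 probe sets of the gene differed by at least 1. Tfap2c, a transcription factor downstream of Blimp1, spanned 11.05 to 11.83 in PGCs and 6.13 to 9.69 (median 6.13) in epiblast cells, a difference of 4.31 that all 3 of its probe sets showed in direction. In epiblast, 3 cells had detectable Tfap2c and 5 did not.

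Dnd1, an RNA-binding protein that protects germ cell transcripts, spanned 10.12 to 11.27 (median 10.82) in PGCs, against 6.13 to 8.56 (median 6.13) in epiblast cells. Alpl, the alkaline phosphatase by which PGCs are stained, spanned 10.05 to 11.35 in PGCs and 6.15 to 7.74 in epiblast cells. Both were high in every PGC with no overlap. Prdm14, a regulator of the pluripotent and epigenetic state of PGCs, was more uneven: it was detected in 6 of 8 PGCs and 0 of 8 epiblast cells, at 8.35 ± 1.36 against 6.13 ± 0.00. The RNA-binding protein gene Elavl2 averaged 8.76 ± 1.58 in PGCs and 6.77 ± 0.69 in epiblast cells, and Rhox9, an X-linked homeobox gene of the germ line, was detected in only 2 of 8 PGCs and in no epiblast cell. Fgf8 was the member that was lower, by -1.40. Among the genes used to choose the cells, whose values the choice itself fixed, Dppa3 differed by 4.73, Prdm1 by 3.83, and Pou5f1 by -0.25 with detection in every cell.

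Genes that germ cells use later, in the gonad and in meiosis, were mostly not detected. Of 19 measured, 1 was higher and 1 lower, and Dazl, Stra8, Sycp1, Piwil4 and Tdrd1 were detected in none of the 16 cells. Only 4 members reached 75% of the cells of a group, among them Tex101, which was detected in all 16 cells. Tdrd5, a tudor domain protein of the piRNA pathway in male germ cells, was higher, at 9.24 ± 1.15 in PGCs and 6.28 ± 0.41 in epiblast cells, with detection in 7 of 8 and 1 of 8. Ddx4, the Vasa helicase, was lower by -1.39, with detection in 2 of 8 PGCs and 6 of 8 epiblast cells.

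Several of the other large positive differences belonged to genes with roles outside the germ line. Mbp, best known as a protein of myelin, spanned 10.04 to 11.41 (median 10.72) in PGCs and sat at the floor in all 8 epiblast cells. PGCs therefore had at least 12.2-fold more signal, a lower bound set by the detection limit of the epiblast arrays. Only 1 of its 8 probe sets differed by at least 1 and 3 were below the limit in all cells, so the measured form of the transcript is that of a single probe set.

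Slc40a1, the iron exporter ferroportin, spanned 9.81 to 11.79 in PGCs and 6.13 to 7.97 in epiblast cells (difference 4.27). Mfge8, a secreted protein that bridges dying cells to phagocytes, spanned 10.17 to 11.75 in PGCs and 6.13 to 8.03 in epiblast cells (4.13). Macroh2a1, a histone variant of repressed chromatin, averaged 10.99 ± 0.27 in PGCs and 6.88 ± 1.12 in epiblast cells (4.11). In each of these genes all PGCs were above all epiblast cells, and 2 or 3 epiblast cells had a detectable signal.

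Pygl, the glycogen phosphorylase of liver, averaged 10.34 ± 0.55 in PGCs and 6.39 ± 0.56 in epiblast cells (3.95). Npnt, an extracellular ligand of integrins, spanned 8.99 to 11.29 in PGCs with detection in 8 of 8, against 0 of 8 epiblast cells, at least 8.39-fold higher. Plagl1, an imprinted zinc finger gene, was near 11.03 in the median PGC but at the floor in 1 PGC, and was detected in 0 of 8 epiblast cells, at least 7.55-fold higher. Only 1 of 3 Plagl1 probe sets differed by at least 1. The X-linked AU015836 had the same shape, with 7 of 8 PGCs detected around a median of 10.45 and 1 of 8 epiblast cells.

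**Figure D2:**
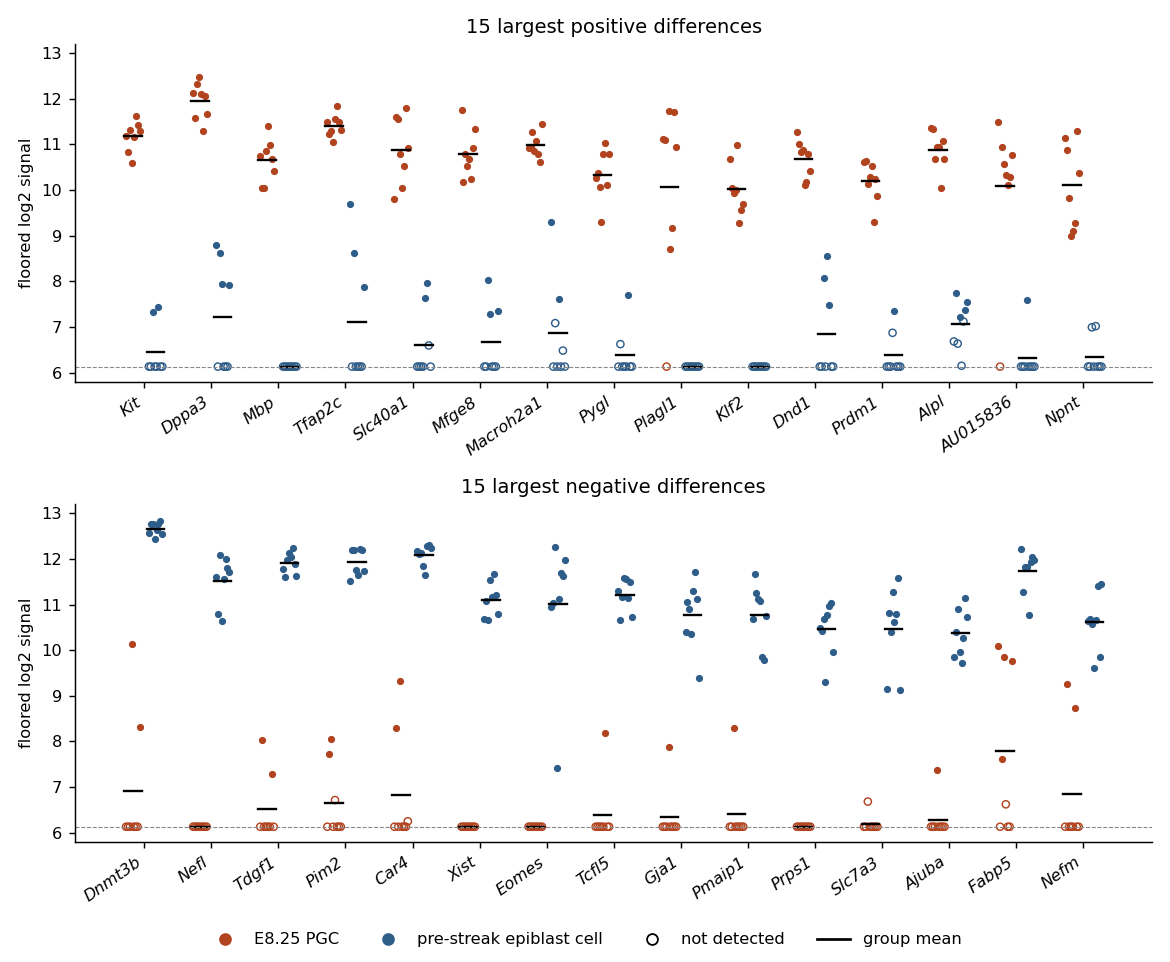
Log2 signal of single cells for the 15 largest positive differences (upper panel) and the 15 largest negative differences (lower panel), with the 8 E8.25 PGCs left of the 8 epiblast cells for each gene; open points were not detected, black bars are means and the dashed line is the floor at 6.13. Most points of the dimmer group sit on the floor, with exceptions in every epiblast cell for Alpl, and single cells such as PGC replicate 4 for Dnmt3b and epiblast replicate 1 for Tfap2c stand above it.

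The largest negative difference was that of Dnmt3b, a de novo DNA methyltransferase, at 6.13 to 10.13 (median 6.13) in PGCs and 12.43 to 12.82 (median 12.70) in epiblast cells, a difference of -5.76. Both of its probe sets were lower by at least 1. PGC replicates 4 and 8 still had detectable Dnmt3b, with signals of 1124 and 321. Nefl, a neurofilament subunit, was at the floor in all 8 PGCs and at 10.64 to 12.09 in epiblast cells, at least 24.1-fold lower in PGCs, and Nefm, its partner subunit, differed by -3.76.

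Tdgf1, the Nodal co-receptor Cripto, lay at 6.13 to 8.04 in PGCs and 11.61 to 12.25 in epiblast cells (-5.39). Pim2, a survival kinase, lay at 6.13 to 8.06 in PGCs and 11.51 to 12.21 in epiblast cells (-5.28). Car4, a carbonic anhydrase of the cell surface, lay at 6.13 to 9.33 in PGCs and 11.66 to 12.30 in epiblast cells (-5.27). For these genes the epiblast cells were uniformly high, with an SD of at most 0.30, while 2 of 8 PGCs kept a detectable signal.

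Eomes, a T-box factor of the early streak, was at the floor in every PGC and at 7.41 to 12.26 (median 11.37) in epiblast cells, at least 16.9-fold lower in PGCs. Tcfl5, a basic helix-loop-helix factor, averaged 6.39 ± 0.73 in PGCs and 11.20 ± 0.35 in epiblast cells. Gja1, the gap junction protein connexin 43, averaged 6.35 ± 0.62 in PGCs and 10.78 ± 0.72 in epiblast cells. Xist (-4.97), Pmaip1 (-4.37) and Prps1 (-4.32) were of similar size, followed by the amino acid transporter gene Slc7a3 (-4.27), the scaffold protein gene Ajuba (-4.08) and the fatty acid binding protein gene Fabp5 (-3.94), of which Fabp5 was still detected in 4 of 8 PGCs.

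Residual epiblast transcripts were uneven among PGCs. Of the 15 genes with the largest negative differences, which were picked for that difference, a PGC had 0 to 5 detected. PGC replicate 4 held 5 of them, Dnmt3b, Fabp5, Car4, Gja1 and Ajuba, whereas replicate 5 held none. Of the 15 genes with the largest positive differences, picked likewise and holding Dppa3 and Prdm1, an epiblast cell had 1 to 5 detected. Epiblast replicate 1 had Tfap2c at 9.69 and Macroh2a1 at 9.31, the highest values of that group.

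Detection was complete in 1 group and lacking in the other for 11 genes on the PGC side (0.0605%) and 16 on the epiblast side (0.0879%). With 8 cells, 0 detected allows a share of up to 36.9% and 8 of 8 a share down to 63.1% (exact Clopper-Pearson intervals, counting error only). On the PGC side stood Mbp, Klf2 and Npnt with Cdx2, a caudal homeobox gene of the posterior embryo at 8.18 to 10.72 (at least 6.62-fold higher), and Wnt5a, a ligand of non-canonical Wnt signalling at 8.79 to 10.68 (at least 5.99-fold). Ttc28 (at least 4.56-fold), the G protein regulator Rgs16 (2.35), Tmem229b (2.03) and the synaptotagmin gene Syt2 (1.51) followed with smaller bounds. Only 1 of 2 Cdx2 probe sets, 1 of 3 of Tmem229b and 3 of 4 of Ttc28 differed by at least 1. The smallest differences among their probe sets were 0.54, 0.39 and 0.29, and 0 of these probe sets were below the limit in all 16 cells. On the epiblast side stood Nefl, Xist, Eomes, Prps1, Slc7a3, the claudin gene Cldn6 (at least 7.09-fold lower in PGCs), Klf9 (6.11), the protease inhibitor gene Spint1 (5.48), Tlcd3b (4.83) and Myc (4.59).

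The pluripotency genes were split. Of 22 measured, 7 were higher and 3 lower, with a median of 0.22. Some naive state factors were higher: Klf2 (at least 7.90-fold), Klf5 (at least 2.70-fold), Esrrb (at least 1.80-fold) and Tfcp2l1 (difference 1.50). They were found in 8, 7, 6 and 6 of the 8 PGCs and in no epiblast cell. Other members of the list stayed under 1 log2 unit, with Klf4 at -0.14, Tbx3 at -0.27, Zfp42 at -0.13, Tcl1 at 0.18 and Nr0b1 at 0.37. Sox2, a core factor, spanned 10.68 to 12.07 in PGCs and 7.32 to 11.89 in epiblast cells (1.81), so the epiblast cells varied widely and overlapped with the PGCs. Pou5f1 (-0.25), Utf1 (-0.02), Sall4 (0.26) and Lin28a (-0.44) were detected in all 16 cells. Nanog (-1.11) and Dppa5a (-2.63) were lower in PGCs with Tdgf1.

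Primed epiblast and Nodal pathway genes were mostly lower: 10 of 22 were lower by at least 1 and 2 were higher, with a median of -0.87. The mean signal of the list was 7.13 ± 0.19 in PGCs and 8.60 ± 0.35 in epiblast cells (SD over cells, n = 8 each), without overlap. Otx2, a homeobox factor of the anterior epiblast, Zic5 and Slc7a3 were detected in 0 of 8 PGCs and 8 of 8 epiblast cells, and the bounds for Otx2 and Zic5 were at least 3.88-fold and 4.34-fold lower. Fgf5, the classic primed marker, was detected in 0 of 8 PGCs and 6 of 8 epiblast cells (at least 3.95-fold lower), Nodal in 2 and 8 (-3.03) and Pou3f1 in 1 and 7 (-3.04). The exceptions were Nkx1-2, a homeobox gene of the caudal epiblast, with 7 of 8 PGCs and 0 of 8 epiblast cells (at least 6.25-fold higher), and Sox3 (2.27).

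Members of the Sox family differed in both directions, with 5 of 15 higher and 3 lower. Sox17, which marks endoderm and, in human, germ cell fate, spanned 6.13 to 10.22 (median 9.85) in PGCs and was detected in 7 of 8, against 0 of 8 epiblast cells (at least 3.65-fold higher). It was also the only member of the endoderm list that was higher by 1 log2 unit. Sox15 (2.11) and Sox13 (1.95) were higher too. Sox4 spanned 6.13 to 10.73 in PGCs and 10.39 to 11.43 in epiblast cells (-2.72), and Sox11 was detected in 1 of 8 PGCs and 7 of 8 epiblast cells (-2.44).

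**Figure D3:**
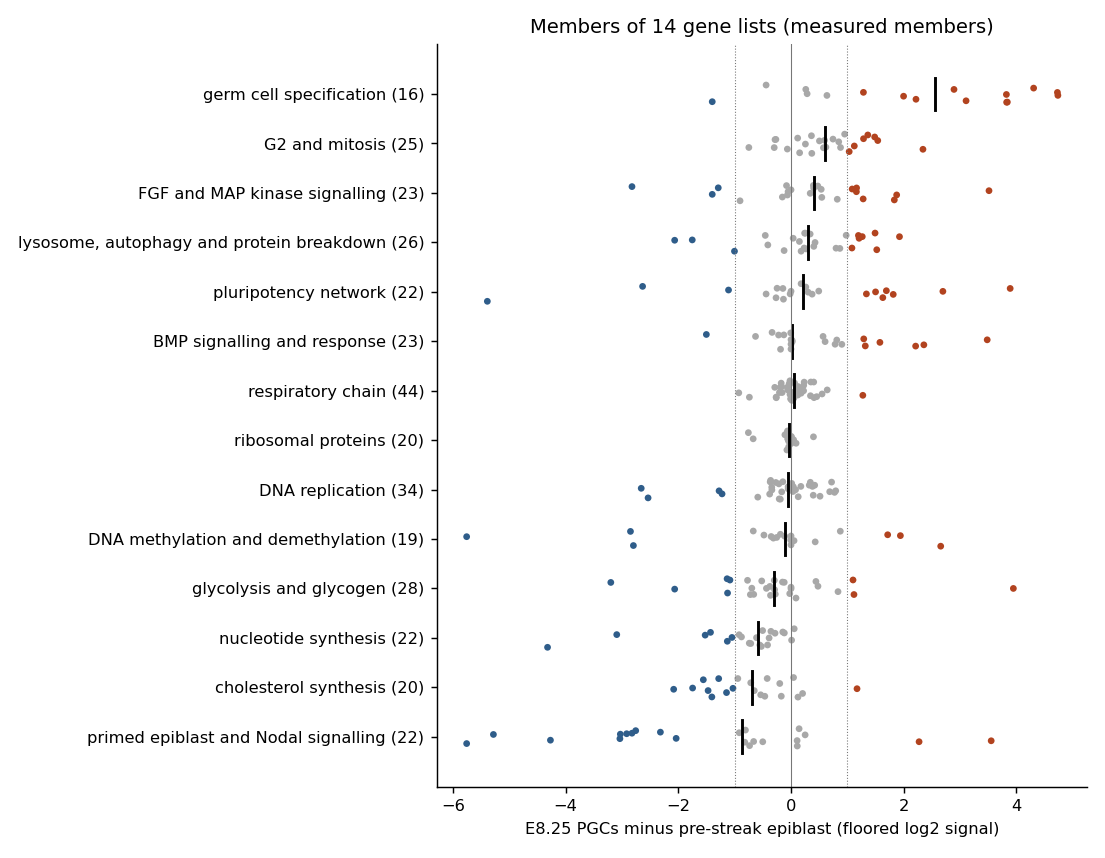
Difference of means, E8.25 PGCs minus pre-streak epiblast, for each member of 14 gene lists (points, coloured where past 1 log2 unit and grey otherwise), with the median of each list as a bar and dotted lines at 1 and -1 log2 units. Germ cell specification genes lie mostly to the right, with a median of 2.56, primed epiblast, nucleotide and cholesterol synthesis genes mostly to the left, and DNA replication genes near 0.

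The enzymes that write new DNA methylation were lower in PGCs. Of 19 genes, 3 were higher and 3 lower, with a median of -0.11. Dnmt3a, the partner of Dnmt3b in new methylation, spanned 6.13 to 8.26 in PGCs and 7.47 to 10.75 in epiblast cells (-2.80). Uhrf1, which brings Dnmt1 to newly replicated DNA, spanned 6.13 to 10.15 in PGCs and 9.02 to 10.70 in epiblast cells (-2.85), with detection in 4 of 8 and 8 of 8. Dnmt1 (-0.31), Tet1 (-0.35) and the remodelling factor Hells (-0.48) were detected in all 16 cells. The related gene Uhrf2 went the other way, at 10.48 ± 0.36 in PGCs and 7.82 ± 1.93 in epiblast cells (2.66), and so did Gadd45a (1.94), a stress gene also linked to demethylation. Dnmt3l, a cofactor of the de novo enzymes, was detected in 0 of 8 PGCs and 4 of 8 epiblast cells, with a difference of -0.67.

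Most histone modifiers differed little. Of 26, Macroh2a1 was higher and 3 were lower, and the median of -0.07 turned to 0.08 with the hybridisation scaling. Ehmt1, also called GLP, a methyltransferase for histone H3 lysine 9, spanned 6.13 to 9.52 (median 6.13) in PGCs and 9.17 to 11.02 in epiblast cells (-3.26), and was detected in 2 of 8 PGCs. The demethylase gene Kdm6a (-1.92) and the Polycomb gene Cbx7 (-1.33) were the other lower members.

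Several targets of BMP signalling were higher and others stayed under 1 log2 unit. Of 23 genes, 6 were higher and 1 lower, against 4.90% and 5.12% of all genes. The list median was 0.02 and lay between 0.02 and 0.29 when each cell was left out in turn. Higher were the homeobox targets Msx1 (10.53 ± 1.15 in PGCs against 7.05 ± 1.47 in epiblast cells, a difference of 3.48) and Msx2 (2.36). The inhibitor of differentiation genes Id1 (2.21) and Id4 (1.32), with Gata2 (1.58) and Bambi (1.29), completed them. Under 1 were Id3 (0.90), Smad6 (0.57), Id2 (0.02) and Smad7 (-0.22). Smad5, a transducer of the signal, was lower by -1.50.

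Of 33 Wnt pathway genes, 4 were higher and 6 lower, against 4.90% and 5.12% of all genes. The share of 22.5% past 1 log2 unit either way holds for detected genes only. Of the 33, 18 were detected in 75% or more of the cells of either group. Higher were Wnt5a, the ligand-modifying enzyme gene Porcn (10.31 in the median PGC and 6.65 in the median epiblast cell, a difference of 2.94), and the targets Lef1 (1.12) and Axin2 (1.04). Lower were the receptor genes Fzd2 (-3.07, detected in 1 of 8 PGCs and 7 of 8 epiblast cells) and Fzd7 (-2.34), the ligand transporter Wls (-1.95), and Tcf7l1 (-1.57), a repressor of the pathway. Axin1 (-1.44) and Wnt8a (-1.20) were the other lower members.

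FGF and MAP kinase genes held 7 of 23 higher and 3 lower, with a median of 0.40. Among the higher members, Dusp4, a phosphatase of MAP kinases, averaged 10.39 ± 0.62 in PGCs and 6.87 ± 1.44 in epiblast cells (3.51), and Spred2, an inhibitor of the pathway, averaged 10.77 ± 0.50 in PGCs and 8.90 ± 1.31 in epiblast cells (1.88) without overlap. The ETS factor genes Etv4 (1.83) and Etv5 (1.09), Dusp5 (1.28), Spred1 (1.16) and Sos1 (1.16), which activates Ras, completed them. Other feedback genes of the list stayed under 1, with Dusp6 at 0.82, Spry4 at 0.55, Spry2 at -0.08 and Spry1 at -0.15. The lower members were all ligands, Fgf5 (-2.82), Fgf8 (-1.40) and Fgf15 (-1.29).

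In the Notch pathway 1 of 23 genes was higher and 3 lower. Hey1, a target also known to respond to BMP, was higher by 2.58, and Hes1 (-1.71, in 0 of 8 PGCs and 5 of 8 epiblast cells), Jag1 (-1.43) and Notch2 (-1.36) were lower. Of 22 cytokine and Jak-Stat genes, Pim1 (1.66), Jak2 (1.27), Stat3 (1.09) and Csf2ra (1.04) were higher and Pim2 was lower, so the related kinase genes Pim1 and Pim2 differed in opposite directions.

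The cell cycle lists are given side by side, with no test of the difference between them. Of 25 genes of G2 phase and mitosis, 7 were higher in PGCs and 0 lower, with a median of 0.60 (0.37 with the probe sets of a gene averaged), and of 34 DNA replication genes 0 were higher and 4 lower, with a median of -0.05 that turned to 0.14 with the hybridisation scaling. Kif11, the motor that separates spindle poles, spanned 6.95 to 10.87 (median 9.32) in PGCs and 6.13 to 8.38 (median 6.87) in epiblast cells, a difference of 2.34. Ccnb2, a B-type cyclin, spanned 11.54 to 12.06 in PGCs and 9.09 to 10.94 in epiblast cells (1.54). Ccnb2 separated the groups fully, while Kif11 overlapped. Hmmr (1.48), a spindle protein, Cenpf (1.36) and Cenpa (1.03), proteins of the kinetochore and centromere, the kinase gene Nek2 (1.29) and Top2a (1.12), which untangles chromosomes, were the other higher members.

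The promoters of these genes, as given by RefSeq on GRCm38.p6, are shown because CCAAT boxes are a known feature of mitotic genes. The 250 bases before the start hold CCAAT on either strand in 18 of 20 promoters of the list and in all 7 of its higher members, against 9314 of 27025 mouse promoters (34.5%). Capitals mark CCAAT or its reverse complement ATTGG, and the regions are chr19:37376132-37376381 on the plus strand for Kif11, and on the minus strand chr9:70421555-70421804 for Ccnb2, chr11:40733438-40733687 for Hmmr and chr1:189688087-189688336 for Cenpf.
Kif11: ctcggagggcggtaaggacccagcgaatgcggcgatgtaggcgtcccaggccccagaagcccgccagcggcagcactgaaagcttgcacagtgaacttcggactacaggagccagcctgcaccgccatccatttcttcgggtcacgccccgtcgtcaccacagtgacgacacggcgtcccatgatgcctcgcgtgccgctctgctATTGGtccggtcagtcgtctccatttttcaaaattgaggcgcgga
Ccnb2: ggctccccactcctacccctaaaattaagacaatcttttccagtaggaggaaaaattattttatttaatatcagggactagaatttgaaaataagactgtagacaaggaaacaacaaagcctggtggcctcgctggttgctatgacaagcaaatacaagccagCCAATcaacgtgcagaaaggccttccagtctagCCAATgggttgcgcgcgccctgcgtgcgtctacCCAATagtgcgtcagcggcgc
Hmmr: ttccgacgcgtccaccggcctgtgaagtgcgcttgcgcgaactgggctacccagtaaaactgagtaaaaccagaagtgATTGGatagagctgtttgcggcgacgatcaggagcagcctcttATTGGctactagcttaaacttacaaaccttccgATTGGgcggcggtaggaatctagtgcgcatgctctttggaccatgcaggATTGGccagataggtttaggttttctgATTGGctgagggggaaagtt
Cenpf: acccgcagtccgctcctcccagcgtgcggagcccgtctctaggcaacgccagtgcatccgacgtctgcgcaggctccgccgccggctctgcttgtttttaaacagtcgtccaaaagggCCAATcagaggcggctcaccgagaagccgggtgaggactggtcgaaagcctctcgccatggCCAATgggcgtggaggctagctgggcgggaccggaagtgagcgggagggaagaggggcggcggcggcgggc
Kif11 holds 1 match, Ccnb2 3, Hmmr 5 and Cenpf 2. The 18 promoters include members that did not differ, such as Plk1 (-0.75), so the match is shared by the list and not by the higher members alone. The letters TTTGAA, the core of the cell cycle gene homology region, read on both strands, occur in 6 of 20 promoters (30.0%), among them Ccnb2, Top2a and Kif11, against 4398 of 27025 (16.3%),. The motifs were searched separately, and their matches may share a base. A match is a description of these letters and not of a bound site.

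The mitotic score, the mean signal of the list, was 9.11 to 11.02 (median 10.79) in PGCs and 9.33 to 10.22 (median 9.80) in epiblast cells. The replication score was 9.27 to 10.64 in PGCs and 9.60 to 10.72 in epiblast cells. PGCs thus spread more widely in the mitotic score, and replicates 8, 6 and 2, at 10.20, 9.52 and 9.11, were in the range of the epiblast cells or under it. PGC replicate 1, with a mitotic score of 10.85, had the lowest replication score of its group, 9.27, and replicate 2 had the highest, 10.64.

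**Figure D4:**
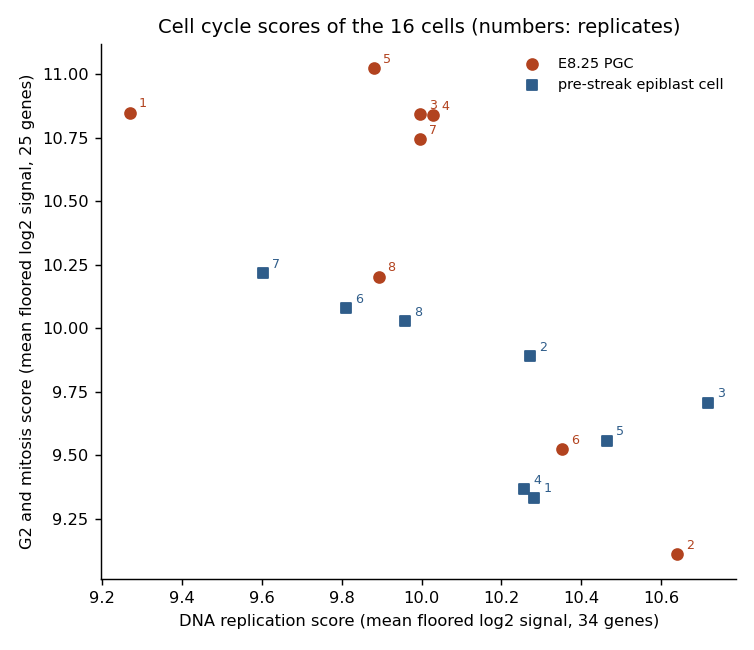
G2 and mitosis score (vertical axis) against DNA replication score (horizontal axis), both mean log2 signal of a list, for the 8 E8.25 PGCs and the 8 pre-streak epiblast cells, numbered by replicate. Most PGCs lie above the epiblast cells, PGC replicate 2 lies at the lower right with scores of 9.11 and 10.64, and replicate 1 at the upper left with 10.85 and 9.27.

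The G1 cyclins differed in both directions. Ccnd1 spanned 6.13 to 9.39 in PGCs and 10.36 to 11.15 in epiblast cells (-2.77), and Ccne1, which drives entry into S phase, spanned 6.13 to 10.30 in PGCs and 10.47 to 11.66 in epiblast cells (-2.66). Both were lower in every PGC. Ccnd3 was at 10.96 to 12.38 in PGCs and 8.77 to 10.72 in epiblast cells (1.83), higher in every PGC, and Ccnd2 was higher by 2.33 with overlap. Gins2, part of the replicative helicase, was lower in every PGC (-2.54), with 6.13 to 9.65 against 9.69 to 10.89, and the inhibitor gene Cdkn1b (-1.40) and the repressor gene E2f4 (-1.48) were lower as well. Wee1, a kinase that holds back entry into mitosis, was higher by 1.76. In the Myc family, Myc was at the floor in every PGC and at 7.51 to 10.54 in epiblast cells, while Mycn was at 10.99 to 11.87 in PGCs and 8.66 to 11.05 in epiblast cells (1.44).

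Several biosynthetic genes were lower in PGCs. Of 22 nucleotide synthesis genes, 6 were lower and 0 higher, with a median of -0.58. Among the 22, 20 were detected in 75% or more of the cells of either group, and of all such genes 11.5% were lower. The list averaged 9.23 ± 0.24 in PGCs and 10.12 ± 0.20 in epiblast cells (SD over cells, n = 8 each), without overlap. Both X-linked enzymes that make phosphoribosyl pyrophosphate, which purine and pyrimidine synthesis use, led the list. Prps1 was at the floor in every PGC and at 9.30 to 11.04 in epiblast cells, at least 11.5-fold lower, and Prps2 spanned 6.13 to 8.82 in PGCs and 8.52 to 11.04 in epiblast cells (-3.09). Dck (-1.52) and Tk1 (-1.43), kinases that salvage nucleosides, and Ppat (-1.13) and Adsl (-1.05) of purine synthesis were the other lower members.

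Of 15 genes of serine, glycine and folate metabolism, 3 were lower and 0 higher, with a median of -0.22 that was 0.00 with the hybridisation scaling. Among the 15, 11 were detected in 75% or more of the cells of either group, and of all such genes 11.5% were lower. Mthfd1l, a mitochondrial folate enzyme, was lower in every PGC (-1.96), at 6.13 to 9.34 in PGCs and 9.76 to 10.88 in epiblast cells. Mthfd2 (-1.64), its neighbour in the pathway, and Phgdh (-1.50), which starts serine synthesis, followed.

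Cholesterol synthesis genes were lower as well, 8 of 20 against 1 higher, with a median of -0.68 and list means of 7.55 ± 0.25 in PGCs and 8.26 ± 0.40 in epiblast cells. Sqle, a rate-limiting step of the sterol branch, spanned 6.13 to 10.59 (median 8.17) in PGCs and 8.98 to 10.83 (median 10.41) in epiblast cells (-2.08). Cyp51 (-1.75), Idi1 (-1.56), Pmvk (-1.41), Dhcr7 (-1.28) and Fdps (-1.15), further enzymes, Insig1 (-1.47), a feedback regulator, and Stard4 (-1.03), a sterol carrier, were the others. Hmgcs1 (0.21) and the regulator gene Srebf2 (0.12) differed little, and Tm7sf2, a sterol reductase, was higher by 1.17.

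Of 28 glycolysis and glycogen genes, 3 were higher and 5 lower, with a median of -0.29. With the hybridisation scaling 4 were higher and 2 lower, and with the lys scaling 1 and 5. The higher members were Pygl, the glycogen synthase gene Gys1 (1.12) and Pgm1 (1.10), an enzyme between glycogen and glucose phosphate. Slc16a3, a lactate exporter, spanned 6.13 to 10.49 (median 6.42) in PGCs and 10.08 to 11.72 in epiblast cells (-3.20), and Ldhb (-2.07), Tpi1 (-1.13), Aldoa (-1.13) and Hk2 (-1.08) were lower with it. Tpi1 was lower in every PGC. Respiratory chain genes gave 1 higher, Cox10 (1.27), and 0 lower of 44, with a median of 0.05 that turned to -0.03 with scaling to the lys controls.

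Iron and heme genes held 4 of 22 higher and 3 lower, with a median of 0.48. Beside Slc40a1, the heme enzymes Alad (9.82 to 10.78 in PGCs and 7.56 to 9.70 in epiblast cells, 1.84) and Alas1 (1.24) and the porphyrin exporter Abcg2 (1.75) were higher, and Cpox (-1.37), Flvcr1 (-1.35) and Ireb2 (-1.44) were lower. Of 26 lysosome and autophagy genes, 7 were higher and 3 lower, with a median of 0.30, among them Hexa (1.93), a lysosomal hexosaminidase, and Gabarapl1 (1.52), Atg5 (1.20), Pink1 (1.21) and Ulk1 (1.08) of autophagy. The cathepsin genes Ctsz (-2.07) and Ctsc (-1.75) were lower.

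Genes of apoptosis and the p53 response held 4 of 26 higher and 8 lower, with a median of 0.05 that was -0.00 with the lys scaling. The lower members were pro-apoptotic effectors and p53 targets together with a survival gene: Pmaip1, or Noxa (-4.37, detected in 1 of 8 PGCs and 8 of 8 epiblast cells), Ccng1 (-2.40), Sesn2 (-1.71), Bok (-1.66), Bcl2l11 (-1.57), Bak1 (-1.23), Apaf1 (-1.07) and Mcl1 (-1.34), which protects cells. Bad (1.54), Casp8 (1.16), Bmf (1.03) and the p53 inhibitor gene Mdm4 (1.15) were higher.

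Of 21 epithelial genes, 3 were higher and 4 lower, again beside 22.5% of detected genes either way, with a median of 0.05 that was -0.09 with the lys scaling. Cdh1, or E-cadherin, spanned 6.13 to 10.74 in PGCs and 10.20 to 11.77 in epiblast cells (-1.53). Spint1 (-3.19), Cldn6 (-3.51) and Grhl2 (-1.05) were lower with it, while Dsp (2.51), a protein of desmosomes, Marveld3 (2.08) of tight junctions and Esrp1 (1.15), an epithelial splicing factor, were higher. Fn1, or fibronectin, was at 10.86 to 12.30 in PGCs and 7.64 to 10.72 in epiblast cells (2.58), higher in every PGC. Among integrins and laminins, Itgb5 (-2.57), Itga6 (-1.97), Itga3 (-1.46) and Lama5 (-1.45, lower in every PGC) were lower and Lamb1 (1.55) higher. Of 10 gap junction genes only Gja1 was lower and Gjc1 (2.02) higher.

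Imprinted genes, which are expressed from 1 parental copy, held 6 of 28 higher and 4 lower, with a median of -0.01 that was 0.00 with the hybridisation scaling. Plagl1, Phlda2 (2.29), Slc38a4 (2.06), Igf2 (1.81), Peg3 (1.55) and Ndn (1.14) were higher. Nnat (-2.47), Mest (-1.80), Snrpn (-1.25, lower in every PGC) and Gnas (-1.04) were lower, so paternally expressed genes such as Peg3 and Mest stood on both sides. The arrays do not tell the parental copies apart.

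Genes of the streak and of mesoderm differed in both directions. Of 22 measured, 2 were higher and 2 lower, with Cdx2 (3.63) and Eomes (-4.88) at the ends of the list, and 13 were detected in no PGC, among them Mixl1, Lhx1, Msgn1, Snai1 and Pdgfra. Of 17 genes of the allantois and extraembryonic mesoderm, Msx1 (3.48), Msx2 (2.36) and Plac1 (1.19), a placental gene detected in 3 of 8 PGCs and 0 of 8 epiblast cells, were higher and Ptgis (-1.95), the prostacyclin synthase gene, was lower. Of 28 genes of the Hox list, which also holds Meis1 and Meis2, only Hoxd9 (1.05) was higher, and 0 were with the lys scaling. Of 23 immediate early and stress genes, Ddit4 (2.47) was higher and Egr1 (-1.90) and Hspa1b (-1.39) were lower, with list means of 7.24 ± 0.21 in PGCs and 7.26 ± 0.38 in epiblast cells.

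Some genes varied strongly inside a group. Among genes detected in 2 to 6 cells of a group, Igf2, a growth factor, had the widest spread in PGCs, with an SD of 2.47 between 6.13 and 12.56 around a median of 7.53. Rhox9 (SD 2.39), Igfbp4 (2.27), a binding protein of insulin-like growth factors, the peptide transporter gene Slc15a2 (2.23) and Gldc (2.14), of glycine breakdown, were further examples. In epiblast cells the widest spreads belonged to the immediate early gene Egr1 (2.90), H2-Q10 (2.72) and Eras (2.41), a Ras-like gene of embryonic stem cells. Eras was detected in 0 of 8 PGCs and 5 of 8 epiblast cells (-2.78). Hspa1b (2.18) and Mt2 (2.16), stress genes, and Slc15a2 (2.16), which was variable at both ends, followed.

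X-linked genes differed more often than autosomal genes in both directions. Of 198 X-linked genes found in 75% or more of PGCs or of epiblast cells, 36 (18.2%) were higher and 33 (16.7%) lower, against 709 (10.7%) and 753 (11.4%) of 6597 autosomal genes, with no test of this difference. Their median was -0.07, and 0.12 with the hybridisation scaling, so no shift of the X chromosome as a whole in 1 direction held across scalings. The largest positive differences on the X belonged to AU015836 (3.77), Porcn (2.94), Hmgn5 (2.54), Sox3 (2.27) and Ints6l (2.24), and the largest negative ones to Pim2, Xist, Prps1, Slc7a3 and Prps2. As all epiblast cells had Xist and no PGC did, the part of sex in these values cannot be told apart from that of stage.

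The middle stages were set against the net difference. For each of the 891 higher and 932 lower genes, the first stage whose mean passed the midpoint between the ends was noted. Of the higher genes, 237 (26.6%) passed it at E/MS, 127 (14.3%) at LS/0B, 313 (35.1%) at E/MB, 139 (15.6%) at EHF and 75 (8.42%) only at E8.25. Of the lower genes, 338 (36.3%) passed it at E/MS, 165 (17.7%) at LS/0B, 279 (29.9%) at E/MB, 93 (9.98%) at EHF and 57 (6.12%) at E8.25. By E/MB 677 of the higher (76.0%) and 782 of the lower genes (83.9%) had passed it at some stage. Fewer also stayed past it at every later stage up to EHF: 473 of the higher (53.1%) and 544 of the lower genes (58.4%) had passed it for good by E/MB, and of those first past it at E/MS 129 of 237 higher and 188 of 338 lower genes stayed. With the 8 LS/0B cells that carry Tex101 and Tsga8 in place of all 17, those by LS/0B numbered 305 and 520 and those by E/MB 676 and 797.

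Kit kept a mean near the floor, 6.44 in epiblast, 6.30 at E/MS and 6.73 at LS/0B, and reached 10.25 at E/MB, 10.81 at EHF and 11.18 at E8.25. Mbp came slightly later, at 6.13, 6.13 and 6.47 in the first 3 groups, 8.57 at E/MB with 6 of 8 cells, 10.52 at EHF and 10.65 at E8.25. Macroh2a1 was early, at 6.88 in epiblast, 9.20 at E/MS, 9.84 at LS/0B and 10.25 to 10.99 from E/MB on. Esrrb and Tfcp2l1 were late: Esrrb was detected in 0 of 8, 0 of 7, 3 of 17, 2 of 8, 5 of 8 and 6 of 8 cells from epiblast to E8.25, and Tfcp2l1 in 4 of 8 cells at EHF and 6 of 8 at E8.25 after at most 1 cell of an earlier group. Cox10 passed its midpoint only at E8.25, at 9.44 after 7.31 at EHF.

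Losses had an order as well. Dnmt3b averaged 12.66 in epiblast, 11.72 at E/MS, 10.12 at LS/0B, 7.89 at E/MB, 6.94 at EHF and 6.91 at E8.25. Pim2 was already at 9.23 at E/MS, after 11.93 in epiblast, and Otx2 at 6.88 after 8.89, with 2 of 7 cells. Sqle averaged 10.18 in epiblast and 7.01 at E/MS, and stayed between 7.52 and 8.10 from LS/0B on. Prps1 held until later, at 10.45, 10.24 and 8.63 in the first 3 groups and 6.34 at E/MB, and Tdgf1 and Eomes were likewise still at 12.24 and 11.18 at E/MS and at 6.13 at E/MB.

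By list, the median member of the 8 lower cholesterol genes had covered 78.0% of its net difference at E/MS and 97.9% at LS/0B, and that of the 10 lower primed epiblast genes 67.1% and 89.6%. The 11 higher germ cell genes had covered 3.04% at E/MS, 44.2% at LS/0B and 101% at E/MB. The 7 higher pluripotency genes had covered 0.00%, 8.18%, 60.8% and 74.9% from E/MS to EHF. The 3 lower DNA methylation genes had covered 16.4%, 44.2%, 97.4% and 101% over the same stages. Over all genes the medians were 17.1%, 33.1%, 73.7% and 81.6% for higher and 30.1%, 44.2%, 76.1% and 88.4% for lower genes. Since members were picked by their net difference, these shares describe an order of stages and support no difference between lists.

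**Figure D5:**
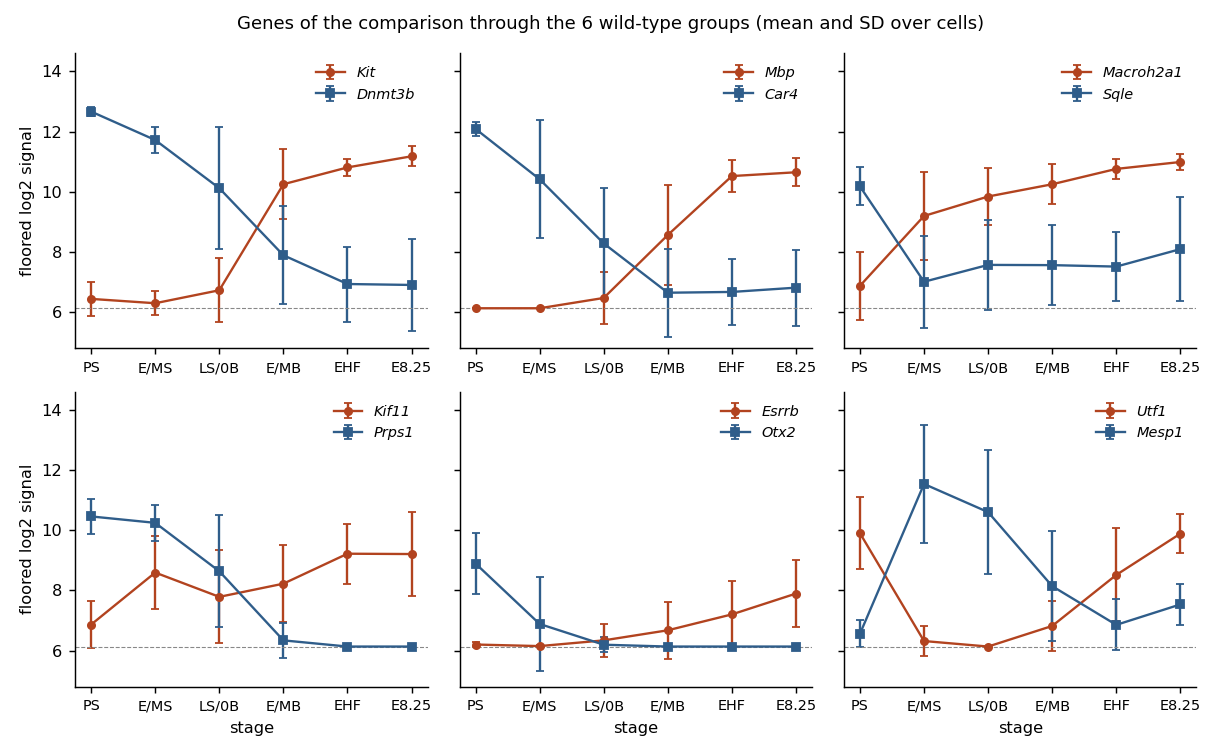
Mean log2 signal with SD over cells (bars) of 6 pairs of genes across the 6 wild-type groups of the lineage in order of stage, from 8 pre-streak epiblast cells to 8 E8.25 PGCs. Kit reaches 10.25 at E/MB while Dnmt3b reaches 7.89 there, and Macroh2a1 is at 9.20 and Sqle at 7.01 by E/MS. Utf1 has similar levels at both ends and Mesp1 is higher by 0.98 in E8.25 PGCs, with opposite courses of these genes in between.

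Some genes stood above or below both ends in between. A middle-stage mean exceeded both ends by at least 1 log2 unit for 326 genes, of which 268 had a net difference under 1. Only genes detected in 75% or more of the cells of that stage were counted. A middle-stage mean lay at least 1 below both ends for 310 genes, of which 275 had a net difference under 1. Here only genes detected in 75% or more of the cells of each end were counted. The counts thus rest on different sets of genes and are not compared. Mesp1, a factor of early mesoderm, averaged 6.56 in epiblast, 11.53 at E/MS and 10.60 at LS/0B, and 7.53 in E8.25 PGCs. Mixl1 (10.60 at E/MS) and Tbx3 (9.80 at E/MS) were at 6.13 in E8.25 PGCs with detection in 0 of 8. Isl1 reached 8.97 and the immediate early gene Fos 10.09 at LS/0B, while Bmp4 (9.76), Chst7 (10.19), Uap1l1 (9.97) and Tmprss2 (9.68) were highest at E/MB.

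Utf1, a chromatin factor of pluripotent cells, was the clearest case of the reverse. It averaged 9.90 in epiblast, 6.32 at E/MS, 6.13 at LS/0B with 0 of 17 cells detected, 6.82 at E/MB, 8.51 at EHF and 9.88 in E8.25 PGCs with 8 of 8. E/MB PGCs, in which Tex101 was detected as at both ends, had Utf1 in 3 of 8 cells, and E/MS precursors, without Tex101, in 1 of 7; the part of the Tex101 split was not tested. Zfp462 was detected in 6 of 8 epiblast cells, 0 of 7 E/MS precursors and 8 of 8 E8.25 PGCs, and Igfbp2 was lowest at E/MB (7.75, after 11.51 in epiblast and before 10.30 at E8.25). Mkrn1 (7.76 at E/MS against 10.64 in E8.25 PGCs and 10.78 in epiblast), Col18a1, Camsap3, Cldn7 and Ina were lowest at E/MS or LS/0B. All E/MS and some LS/0B cells stood on the other side of the Tex101 split from both ends, and its part in these values was not tested.

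Cells of neither end gave the same directions for most genes. In E/MB and EHF PGCs minus E/MS precursors, 757 of the 891 higher genes were positive (85.0%, against 38.9% of all genes) and 358 were 1 log2 unit higher or more (40.2%, against 4.34% of all genes). Of the 932 lower genes, 763 were negative (81.9%, against 34.4%) and 313 lower by at least 1 (33.6%, against 4.27%). The other way went 134 of the higher and 165 of the lower genes. Of all 18193 genes, 7073 were positive, 6258 negative and 4862 exactly 0, while only 4 of the lower and 0 of the higher genes were 0. The shares of all genes are lowered by these zeros, so the contrast with them overstates the agreement in direction. With LS/0B precursors as the early cells, 760 were positive and 763 negative, and with the 8 of them that carry Tex101 and Tsga8, 794 and 710. Kit differed by 4.23, Dnd1 by 3.82, AU015836 by 4.52, Dnmt3b by -4.30, Gja1 by -4.55 and Tdgf1 by -5.96 between these cells, whereas Kif11 (0.13), Wnt5a (0.41), Nefm (-0.37) and Sqle (0.53) hardly differed.

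Set against posterior mesoderm of their own stage, E/MB PGCs differed in many of the same genes. Of the 891 higher genes, 724 were positive and 163 negative. Of these 891, 352 exceeded mesoderm by 1 log2 unit or more (39.5%, against 8.43% of all genes) and 30 were lower by as much. The direction was less often kept by the 932 lower genes, of which 589 were negative (63.2%) and 328 positive (35.2%). By at least 1, 198 were lower (21.2%, against 3.62%) and 69 higher. All genes here include 4981 with a difference of exactly 0, which lowers their shares. Tfap2c (4.59), AU015836 (4.96), Kit (3.97), Slc40a1 (3.74) and Pygl (3.44) were higher than in mesoderm, and Gja1 (-3.74), Dnmt3b (-3.11), Car4 (-2.67), Prps1 (-2.61) and Fabp5 (-2.61) lower. Macroh2a1 (-0.10), Cdx2 (0.30), Kif11 (-0.17), Pim2 (-0.17) and Eomes (-0.28) differed from mesoderm by less than 1 log2 unit. Mesoderm cells stood on the other side of the Tex101 split, and its part in these values was not tested.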

How the data were processed

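The authors deposited linear intensity, with a value for each probe set of each cell. MAS5 produced it, per the submitters' processing notes, whose version and scaling were not given in the sources used here. Lysates of single cells were reverse transcribed and amplified by PCR without purification, per the labels' protocols. Of the deposited intensities, 15.3% stood at 1, 1 value was missing outside the values used, and 0 pairs of cells were identical.

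Of 45101 probe sets, 34945 had 1 gene symbol (18193 genes), 932 several and 9160 none; 0 symbols needed updating. T had no probe set with 1 symbol. The floor, a signal of 70.2, was the median over cells of the 90th percentile of 126 background probe sets (olfactory, vomeronasal and taste receptors and keratin-associated genes), and log2 was taken of the deposited intensities raised to it. The probe set with the highest mean over all cells stood for its gene. Bounds written "at least N-fold" set the mean of the brighter group against, per cell of the dimmer group, the higher of its detection limit and its own signal, on the log2 scale without the floor. Precision is limited by the number of arrays.

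The members and the 45 gene lists (975 symbols, 899 genes measured) were chosen with earlier results of these data known. Named genes are the 15 largest differences each way among genes found in 75% or more of the higher group, list members, the 10 most variable genes of each group, the 5 largest X-linked differences each way, the 10 largest middle-stage excesses and shortfalls, and up to 10 genes each way detected in 8 of 8 cells of 1 group and 0 of 8 of the other. No test was run, because the labels name no embryo. The calculation was checked on simulated data. Alternatives were the floor, the probe set rule, 3 scalings, the detection limit, the early cells and leaving out each cell. Software was Python 3.11.15, numpy 2.4.6, pandas 2.3.3, scipy 1.17.1 and matplotlib 3.10.9.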

Additional observations from a re-analysis of the deposited data

Results flagged for a closer look

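In sets of 8 cells, a cell is named here where its gap to the nearest other cell as a share of the group's range exceeds Dixon's 95% critical value. Of 103 sets of values, 17 (16.5%) passed, where chance gives about 1 in 20; sets in which all other cells sit on the floor pass at any height.

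A gap of 1.0, a lone cell above a group on the floor, occurred in E8.25 PGCs for Ajuba and Gja1 (replicate 4, at 7.37 and 7.88), Cldn6 (replicate 1, 7.07), Pmaip1 and Slc7a3 (replicate 3, 8.28 and 6.68), Spint1 (replicate 8, 6.64) and Tcfl5 (replicate 6, 8.19). In epiblast cells it occurred for AU015836 (replicate 4, 7.59), Rgs16 (replicate 6, 6.29) and Wnt5a (replicate 5, 7.09).

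Among E8.25 PGCs, replicate 2 lacked AU015836 (gap 0.741; at 6.13, with the next cell at 10.1), and replicate 3 had the lowest Cdx2 (0.529; 8.18, next 9.52). Among epiblast cells, replicate 4 had little Eomes (0.729; 7.41, next 10.95), replicate 6 had the most Pygl (0.687; 7.70, next 6.63), replicate 1 the most Macroh2a1 (0.534; 9.31, next 7.61), and replicate 7 the least Ifitm3 (0.583; 7.77, next 9.56). Epiblast replicate 7 also had the fewest genes above the 99th percentile of background (0.557), 3778 against 5070 in the next cell.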

How the results depend on the processing

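No paired analysis was possible because replicate numbers only name single cells and no result comes from a test. The 44 differences followed here were mostly picked for their size, or for detection in every cell of 1 group and no cell of the other. None of the 44 changed sign under the alternatives run, but this choice makes a change of sign unlikely. The result therefore says little about the other genes named above. Of the 1823 genes past 1 log2 unit, 3 had the opposite sign with averaged probe sets and 28 with the probe set chosen without the floor, all by less than 1, and 0 under the other settings. Of 45 list medians, 10 changed sign between scalings. Without the floor, 2122 genes were higher and 2814 lower, and list medians were 3.16 for germ cell specification, -4.20 for primed epiblast, 0.90 for BMP and -1.56 for cholesterol synthesis; the cause was not tested. With the floor at the 95th percentile, 658 were higher and 597 lower; with the mean of a gene's probe sets, 481 and 518, and the cholesterol synthesis medians were -0.39 with that floor and -0.45 with averaged probe sets, which gave 0.37 for mitosis; with the probe set chosen without the floor, a choice added after seeing the data, 819 and 872. Scaling to the hybridisation controls gave 1267 higher and 801 lower and an X-linked median of 0.12. The 99th percentile as detection limit left 16 genes in all PGCs and no epiblast cell, and 10 the other way. Leaving out each cell in turn gave 880 to 949 higher and 895 to 1002 lower genes, and medians of -0.09 to -0.03 for X-linked genes, 2.41 to 2.72 for germ cell specification, -1.09 to -0.70 for primed epiblast, 0.02 to 0.29 for BMP, 0.49 to 0.81 for mitosis, -0.67 to -0.53 for nucleotide and -0.90 to -0.59 for cholesterol synthesis. Of these 44 differences, 37 moved by more than their spread without the floor, 20 with the higher floor, 15 with averaged probe sets, 4 with the other probe set choice and 0 under the 3 scalings.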

Other observations

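Genes named for nerve cells stood on both sides of the comparison, 2 of 28 higher and 4 lower, among them Nefl and Nefm. Of 18 interferon and MHC genes, Ifitm1 (12.75 ± 0.16 in PGCs and 9.64 ± 1.17 in epiblast cells) and Ifitm2 (1.58) were higher beside Ifitm3, which was used in the screen, and H2-K1 (-2.01) and Ifit2 (-1.05) were lower. Of 19 retinoid and steroid genes 3 were higher, with the retinoic acid binding protein gene Crabp1 at 2.42 and the orphan receptor gene Nr5a2 at 1.49, and 0 were lower.

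The limits are those of 16 cells of unknown embryos: stage, sex and litter cannot be told apart, a gene at the floor may be expressed, and a gene read by 1 probe set may reflect 1 form of its transcript.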
